A study of Mus musculus with 21 samples.

Results

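The comparison concerns what 12 h of blocked heme synthesis did to the transcripts of differentiating erythroid progenitors. It rests on 6 of the 21 libraries of the series, chosen by their labels. The 3 columns named T12SA came from cells given erythropoietin (Epo) together with succinyl acetone (SA) for 12 h, and the 3 columns named T12 came from cells given Epo alone for 12 h. Each group had 3 libraries, described by the submitters as biological replicates. All cells were MEDEP cells of the BRC5 line, a mouse erythroid progenitor line obtained from embryonic stem cells, so every library stands for 1 line in culture. Before the switch (0 h, T0) the cells grew with 50 nM stem cell factor (SCF) and dexamethasone. For T12SA and T12 both were withdrawn and 4 U/ml Epo was added. The dose of SA is not given in the sources used here. The groups T0 and T24 (24 h of Epo alone) serve below as side values. Polyadenylated RNA was sequenced in strand-specific libraries.

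Heme is made from glycine and succinyl-CoA in a chain of enzymes that starts with 5-aminolevulinate synthase in the mitochondrion. The housekeeping form, Alas1, is held down by heme itself, whereas the erythroid form, Alas2, is induced during red cell formation and controlled by iron. SA blocks Alad, the enzyme that follows. Besides filling hemoglobin, heme releases the repressor Bach1 from DNA and restrains the kinase HRI (Eif2ak1), which otherwise slows globin translation and switches on Atf4. Iron is also a cofactor of the prolyl hydroxylases (Egln1 and its relatives) that mark hypoxia-inducible factor for destruction.

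The T12SA libraries held 33049942, 39316031 and 31015256 estimated counts, and the T12 libraries 37135174, 28301256 and 24960611. Mitochondrial transcripts took 5.51 ± 0.138% of counts in T12SA and 5.45 ± 0.0781% in T12 (mean ± SD, n = 3 each, exact permutation p = 0.600, 2-sided). The defining erythroid markers were present in both groups, with all 11 measured members tested and a summed level of 9760 to 10838 CPM (counts scaled to library size) in T12SA against 13666 to 14581 CPM in T12. Markers of other lineages were low, with 4 of 11 megakaryocyte markers (among them Pf4 and Ppbp), 5 of 10 macrophage markers (C1qa among them), 7 of 10 neutrophil markers (Elane and S100a8 among them) and 4 of 10 lymphocyte markers (Cd3e among them) at 0 in all 6 libraries. Summed macrophage markers lay at 1.39 to 1.89 CPM in T12SA and 0.966 to 1.43 CPM in T12, neutrophil markers at 0.0588 to 0.114 CPM in T12SA and 0.0171 to 0.0743 CPM in T12, and lymphocyte markers at 0.216 to 0.314 CPM in T12SA and 0.154 to 0.222 CPM in T12. Mast cell markers summed to 5.44 to 9.07 CPM in T12SA and 6.31 to 9.67 CPM in T12, and megakaryocyte markers to 19.5 to 20.2 CPM in T12SA and 21.8 to 23.8 CPM in T12. In a bulk sample, fewer cells of a type and less RNA per cell cannot be told apart. CPM values here are normalised by the trimmed mean of M values (TMM), so fold changes are read against the bulk of the genes tested.

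Under SA, 1 gene rose far above all others, Alas1, and 45 genes fell. Only Alas1 and Sh2d4b were higher (0.0162% of the 12360 genes tested), whereas the 45 lower genes made up 0.364% (edgeR quasi-likelihood test on all 21 libraries, Benjamini-Hochberg adjusted p of 0.05 or less). Both higher genes and 25 of the lower genes changed at least 2-fold. At an unadjusted p under 0.05, 259 genes were higher and 500 lower. The replicate numbers paired T12SA and T12 libraries, and a fit of these 6 libraries with the replicate number as a block, called the blocked fit here, gave 571 higher genes (5.14% of the 11115 tested) and 987 lower genes (8.88%). All 47 calls of the unblocked fit were among them with the same direction. Most changes called in the blocked fit were small, with 556 of the 571 rises and 812 of the 987 falls under 1.5-fold, but 74 of its falls were at least 2-fold. The same 6 libraries without a block gave 89 higher and 376 lower genes, so the longer lists came with both the smaller set of libraries and the block. Groups did not overlap, irrespective of any test, in 14.4% of genes with T12SA higher and in 9.86% with T12SA lower.

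Each list was shorter whichever library, or whichever replicate number, was left out. Leaving out 1 library leaves its group with 2, so a shorter list does not single out that library. In the unblocked fit, the number of lower genes was 16, 10 and 12 without T12SA replicate 1, 2 and 3, and 30, 12 and 17 without T12 replicate 1, 2 and 3, with 1 higher gene each time. The 10 genes past the threshold in each of those fits included Alas1, Slc2a1, Tfrc, Dcbld2, Adgrd1, Ccng2, Cyp2s1, St5 and Trpv2, and all 47 kept their direction. In the blocked fit, leaving out the libraries numbered 1, 2 or 3 gave 467, 75 and 268 rises and 886, 391 and 715 falls. Of the 47 genes, 46 passed in each of these 3 blocked fits, the exception being Cntn6.

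**Figure D1:**
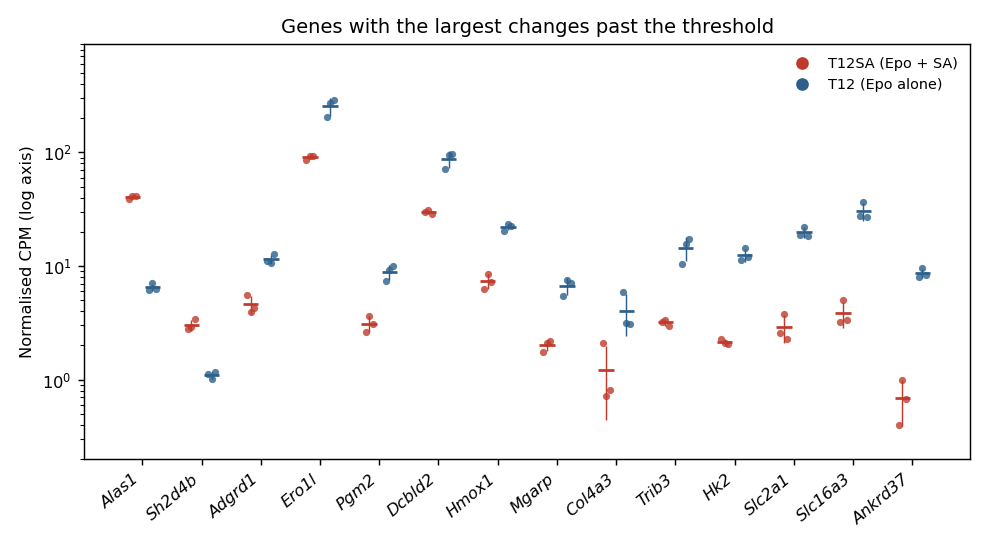
Normalised CPM (log axis) of the 14 genes with the largest changes past the threshold whose mean count reached 100, with T12SA (red) left of T12 (blue); points are libraries, horizontal bars means and vertical lines SD (n = 3 each). Alas1 and Sh2d4b lie higher in T12SA, the other 12 genes lie lower, and the groups of no gene overlap, which the choice of these genes required.

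Of the 9 heme synthesis enzymes tested, Alas1 rose about 6-fold and no other passed the unblocked test. Alas1 (ENSMUSG00000032786.16, chr9:106233455-106248654, minus strand, GRCm38) stood at 38.5, 41.5 and 41.0 CPM in T12SA, against 6.12, 7.02 and 6.26 CPM in T12. Every SA library was thus well above every library with Epo alone, with a log2 change of 2.64 ± 0.13 (SE, adjusted p = 1.61e-10) and a fold of 6.23. The T12SA level also exceeded the 10.5 ± 0.736 CPM at 0 h (SD, n = 3). Per transcript length Alas1 stayed the minor isozyme, with 54.9 TPM (abundance scaled for transcript length) in T12SA and 8.78 TPM in T12, beside 354 TPM in T12SA and 424 TPM in T12 for Alas2.

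The erythroid isozyme Alas2 had 316, 269.9 and 261 CPM in T12SA, against 349.9, 335 and 347 CPM in T12. The groups did not overlap, but the gap was small, with a log2 change of -0.28 ± 0.15 (adjusted p = 0.873). In the blocked fit Alas2 fell (-0.31 ± 0.05, adjusted p = 0.000726), together with Ppox (-0.32 ± 0.03), Alad (-0.25 ± 0.04), Fech (-0.20 ± 0.03), Cpox (-0.19 ± 0.04) and Urod (-0.10 ± 0.03). Uros, which closes the ring of the heme precursor, did not pass in either fit. Without the libraries numbered 2, only 3 of those 6 falls passed. Over all genes, 8.88% fell in the blocked fit. The median log2 change of the 9 enzymes was -0.18, against 0.02 over all genes. All enzymes of the chain other than Alas1 were higher than at 0 h with or without SA. Alas2 was 4.31 above 0 h on the log2 scale in T12SA and 4.60 above it in T12, and Alad 2.30 in T12SA and 2.53 in T12. Addition of Epo, withdrawal of SCF and dexamethasone, and time cannot be told apart in comparisons with 0 h.

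**Figure D2:**
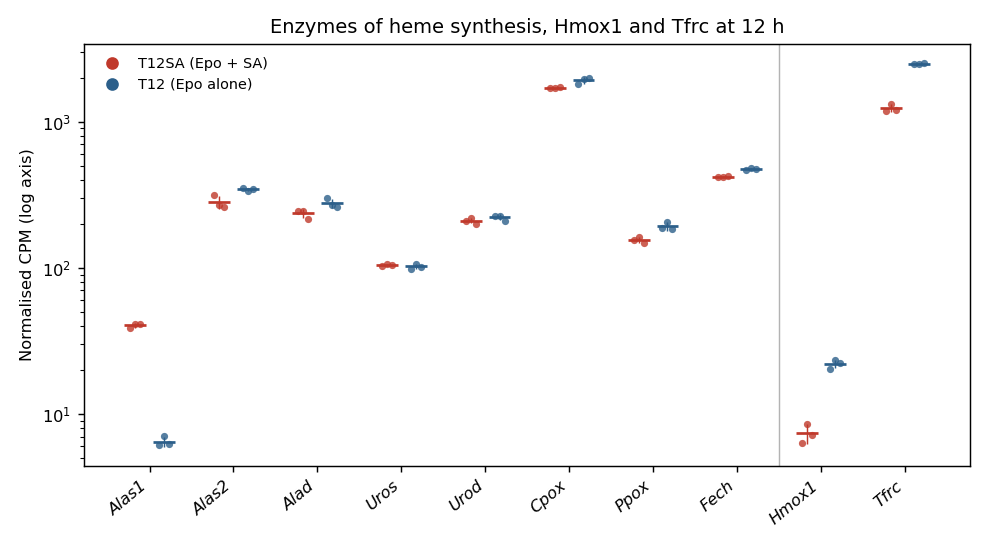
Normalised CPM (log axis) of 8 heme synthesis enzymes in pathway order, and of Hmox1 and Tfrc (right of the grey line), with T12SA (red) left of T12 (blue); points are libraries, horizontal bars means and vertical lines SD (n = 3 each). Alas1 averaged 40.3 CPM in T12SA and 6.47 CPM in T12, whereas the other enzymes drawn differed little.

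Heme-responsive genes under Bach1 and Nrf2, the activator that competes with it for the same sites, included 2 that fell and none that rose in the unblocked fit. Hmox1 (ENSMUSG00000005413.8, chr8:75093621-75100589, plus strand), the heme-degrading oxygenase, had 6.31, 8.55 and 7.22 CPM in T12SA, against 20.4, 23.3 and 22.4 CPM in T12. The SA libraries were close to the 0 h level of 8.53 ± 0.940 CPM, and the fall was 2.99-fold (log2 change -1.58 ± 0.30, adjusted p = 0.0194). Gclm, the modifier subunit of glutamate-cysteine ligase in glutathione synthesis, had 120.2, 114 and 114 CPM in T12SA, against 188, 169 and 174 CPM in T12 (log2 change -0.61 ± 0.12, adjusted p = 0.0279). Its T12SA libraries were likewise at the 0 h level of 119 ± 9.28 CPM. Gclm no longer passed without any 1 of the 6 libraries (adjusted p of up to 0.182), and Hmox1 without any 1 but T12 replicate 1 (up to 0.138); both passed in each blocked fit. On TPM Gclm passed in none of the 3 limma fits (-0.51 to -0.50, adjusted p = 0.406 to 1.00).

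The list held 26 tested genes, of which 2 were lower in the unblocked fit (0.364% of all genes were). Of its 25 genes tested in the blocked fit, 9 were lower and 2 higher, beside 8.88% and 5.14% of all genes. The higher ones were Nfe2l2 (Nrf2 itself, 0.24 ± 0.05) and Mafk (0.16 ± 0.04), a small Maf partner. The median log2 change of the list was -0.10. Falls in the blocked fit included the heme transporter Slc48a1 (-0.31 ± 0.05) and the catalytic subunit Gclc (-0.22 ± 0.03). Bach1 itself stood at 47.2, 45.1 and 46.6 CPM in T12SA and 51.6, 46.6 and 49.6 CPM in T12, and did not pass in either fit (adjusted p = 1.00 and, blocked, 0.0723). Without the libraries numbered 2, none of the list was higher and 6 members were lower.

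Of the genes for iron uptake, storage and sensing, the transferrin receptor stood out. Tfrc (ENSMUSG00000022797.15, chr16:32608920-32632794, plus strand), through which erythroid cells take up iron, had 1182, 1329 and 1210 CPM in T12SA, against 2475, 2485 and 2518 CPM in T12. The SA libraries held 2.01-fold less (log2 change -1.01 ± 0.13, adjusted p = 0.000404), but still more than the 461 ± 26.6 CPM at 0 h. On the deposited TPM values the change was of similar size (-0.97) but did not pass in any of the 3 limma fits (adjusted p = 0.172 to 0.295). None of the other 19 tested members of the list passed in the unblocked fit. In the blocked fit Ftl1, a ferritin chain (-0.21 ± 0.04), the iron exporter Slc40a1 (-0.17 ± 0.04) and Tfr2 (-0.12 ± 0.04) also fell and the ferrireductase Steap3 rose (0.13 ± 0.03). Ireb2, whose protein stabilises Tfrc messenger RNA when iron is scarce, had 121, 122 and 127 CPM in T12SA and 117, 119 and 126 CPM in T12. Among carriers of iron and heme in the mitochondrion, none of 17 passed unblocked and 6 fell in the blocked fit, against 8.88% of all genes. The 6 included Tspo2 (-0.38 ± 0.04), the porphyrin transporter Abcb6 (-0.35 ± 0.03) and mitoferrin, Slc25a37 (-0.25 ± 0.03).

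The broadest falls by size were in hypoxia-responsive genes and in glycolysis. These lists share members, among them Slc2a1 and Pdk1, so their counts are not separate. Slc2a1 (ENSMUSG00000028645.11, chr4:119108711-119137983, plus strand), the glucose transporter GLUT1, had 2.59, 3.77 and 2.26 CPM in T12SA, against 18.9, 22.2 and 18.4 CPM in T12. This was a 6.85-fold lower level (log2 change -2.78 ± 0.33, adjusted p = 0.000228), near that of 0 h (3.35 ± 0.822 CPM). Ankrd37 (chr8:45996902-46005707, minus strand), a small ankyrin repeat protein induced by hypoxia, had 0.400, 0.991 and 0.667 CPM in T12SA, against 7.98, 9.53 and 8.37 CPM in T12. Its log2 change was -3.62 ± 0.72 (adjusted p = 0.0220), the largest fall where the mean count reached 100. Slc16a3 (chr11:120948480-120960868, plus strand), the lactate exporter MCT4, had 3.22, 5.00 and 3.32 CPM in T12SA, against 27.5, 36.5 and 27.1 CPM in T12 (log2 change -2.97 ± 0.53, adjusted p = 0.0111). Its T12SA level stayed above the 1.07 ± 0.228 CPM at 0 h. Hk2, the hexokinase that traps glucose, had 2.27, 2.11 and 2.06 CPM in T12SA, against 11.2, 14.3 and 11.9 CPM in T12 (log2 change -2.54 ± 0.48, adjusted p = 0.0180). Its T12 level was not above that of 0 h (16.4 ± 1.76 CPM). Ero1l, an oxidase of protein folding in the endoplasmic reticulum, had 86.0, 93.2 and 93.8 CPM in T12SA, against 204, 273 and 289 CPM in T12 (log2 change -1.49 ± 0.28, adjusted p = 0.0174). Slc2a1 passed whichever library was left out. Ankrd37 no longer passed without any 1 of the 6 (adjusted p of up to 0.179), Hk2 and Ero1l without any 1 but T12 replicate 1 (up to 0.143 and 0.109), and Slc16a3 without any T12SA library or T12 replicate 2 (up to 0.109).

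Of the 17 hypoxia-responsive genes tested, 3 were lower in the unblocked fit. Of the 15 tested in the blocked fit 13 were lower, also without the libraries of any 1 number. Over all genes, 8.88% were lower in the blocked fit. DESeq2 called 7. The median log2 change was -0.91, against 0.02 over all genes. The mitophagy receptor Bnip3 had 8.14, 11.7 and 11.6 CPM in T12SA and 40.2, 66.8 and 59.8 CPM in T12, with no overlap (log2 change -2.40 ± 0.57, adjusted p = 0.0810; blocked -2.42 ± 0.05, adjusted p = 1.13e-11). The oxygen sensor Egln1 had 34.1, 33.8 and 32.0 CPM in T12SA and 64.7, 80.4 and 73.9 CPM in T12 (blocked -1.15 ± 0.06). Vegfa, the angiogenic factor, had 11.8, 9.67 and 9.34 CPM in T12SA and 21.1, 24.7 and 21.5 CPM in T12 (blocked -1.15 ± 0.08). The blocked falls of the others ranged from -1.14 for Ddit4, an inhibitor of mTORC1, to -0.48 for Mxi1. The transcript of the factor itself, Hif1a, did not pass, with 43.3, 43.0 and 43.4 CPM in T12SA and 39.2, 42.5 and 41.9 CPM in T12, and neither did Pfkfb4 (blocked -0.08 ± 0.03).

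Of the 23 glycolysis genes, 3 were lower in the unblocked fit and 18 in the blocked fit (15 to 17 without the libraries of 1 number). None was higher in either fit, and 8.88% of all genes were lower in the blocked fit. The median log2 change was -0.83. Relative to 0 h the list's median log2 change was -0.13 in T12SA and 0.69 in T12, 2 comparisons that share the 0 h libraries. The falls ran through the pathway. Pfkl, a subunit of phosphofructokinase, had 37.5, 42.9 and 39.2 CPM in T12SA and 83.5, 108 and 95.1 CPM in T12 (blocked -1.28 ± 0.04). Pgk1 had 192, 186 and 191 CPM in T12SA and 336, 396 and 377 CPM in T12 (blocked -0.98 ± 0.05). Ldha, which makes lactate, had 349, 358 and 350.0 CPM in T12SA and 553, 676 and 619 CPM in T12 (blocked -0.82 ± 0.05). Gapdh, often taken as a stable reference transcript, had 774, 752 and 729.5 CPM in T12SA and 1110, 1226 and 1186 CPM in T12 (blocked -0.66 ± 0.04). The groups did not overlap in any of these 4 genes. In the whole list, T12SA was lower without overlap in 17 of 23 genes, against 9.86% of all genes. It was higher without overlap in 1, against 14.4% of all genes. Isoforms of the same steps differed: the erythroid pyruvate kinase Pklr changed little (blocked -0.17 ± 0.03) beside Pkm (-0.45 ± 0.04), Hk1 (-0.13 ± 0.03) beside Hk2, and neither Pfkm nor the transporters Slc2a3 and Slc16a1 passed. The red cell enzyme Bpgm did not pass either (-0.09 ± 0.04). Several of these genes have near-identical processed copies in the genome, and how the counting assigned shared reads is not given in the sources used here.

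**Figure D3:**
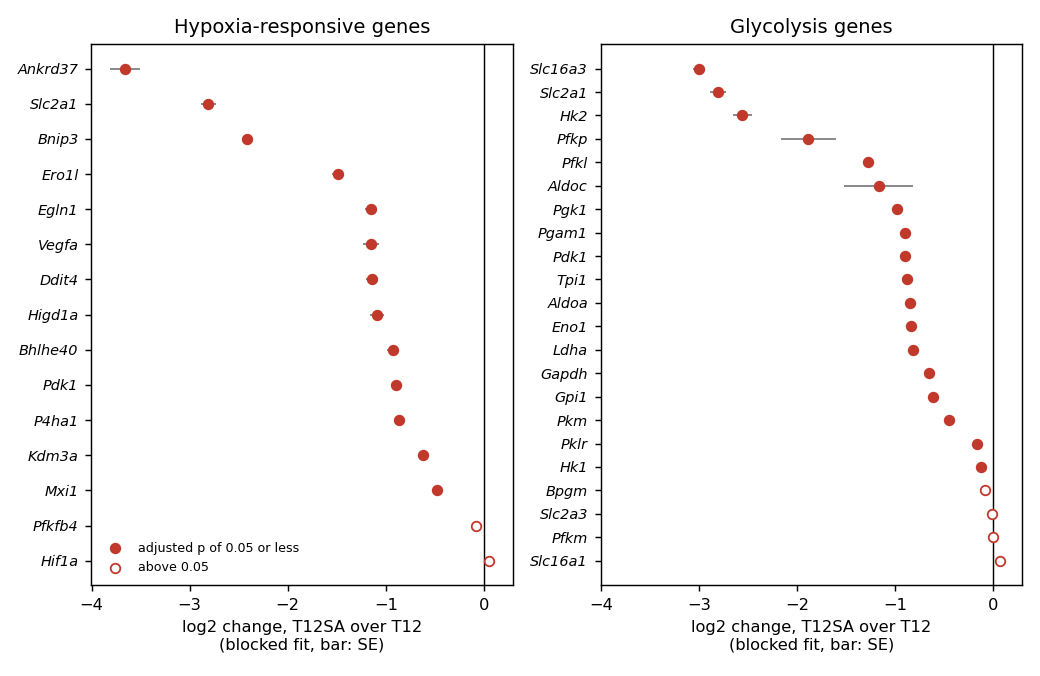
Log2 change of T12SA over T12 with its SE in the blocked fit for hypoxia-responsive genes (left) and glycolysis genes (right); filled points have an adjusted p of 0.05 or less. Of the points, 13 on the left and 18 on the right are filled, from -3.66 for Ankrd37 to -0.13 for Hk1.

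Promoters of these genes are shown because hypoxia-inducible factor binds a short core, ACGTG or GCGTG. Both were chosen after the values were seen and were searched on both strands of RefSeq windows from 250 bases before to 50 after the start of transcription (build GRCm38.p6). ACGTG stood in 15 of the 20 hypoxia-responsive genes with a window (75.0%) and in 13 of the 22 glycolysis genes (59.1%), against 21.8% of all 27025 genes. GCGTG stood in 15 and 13 of them as well, against 35.2% of all genes. Of the 11 hypoxia-responsive genes with a window that were lower in the blocked fit, 9 held ACGTG and 10 held GCGTG. Of 18 such glycolysis genes, 11 held ACGTG and 10 held GCGTG. Neither core was confined to the lower members. The hypoxia list was drawn up as hypoxia-responsive, so a high share there was likely from the outset and says nothing about SA. A match is a description of letters, not of binding. Capitals mark either core on either strand; where both strands match side by side, the capitals run together. Ankrd37, Slc16a3 and Slc2a1 carry the 3 largest falls, Bnip3 and Pgk1 were added after their values were seen, and all are written 5′ to 3′ along the gene's strand.
Ankrd37 (chr8:45999801-46000100, minus strand): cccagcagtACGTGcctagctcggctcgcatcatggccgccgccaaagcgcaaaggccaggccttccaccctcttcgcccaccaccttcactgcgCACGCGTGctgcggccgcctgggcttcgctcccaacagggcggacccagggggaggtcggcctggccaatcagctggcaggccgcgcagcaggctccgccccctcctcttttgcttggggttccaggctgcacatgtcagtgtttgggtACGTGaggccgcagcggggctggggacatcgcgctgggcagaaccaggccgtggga
Slc16a3 (chr11:120948817-120949116, plus strand): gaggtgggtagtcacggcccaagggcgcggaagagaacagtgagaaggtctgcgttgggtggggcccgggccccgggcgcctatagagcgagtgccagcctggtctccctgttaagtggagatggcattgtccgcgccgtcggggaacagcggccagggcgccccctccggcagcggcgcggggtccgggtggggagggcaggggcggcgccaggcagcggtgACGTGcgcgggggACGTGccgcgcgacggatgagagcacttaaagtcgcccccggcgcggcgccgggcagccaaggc
Slc2a1 (chr4:119108495-119108794, plus strand): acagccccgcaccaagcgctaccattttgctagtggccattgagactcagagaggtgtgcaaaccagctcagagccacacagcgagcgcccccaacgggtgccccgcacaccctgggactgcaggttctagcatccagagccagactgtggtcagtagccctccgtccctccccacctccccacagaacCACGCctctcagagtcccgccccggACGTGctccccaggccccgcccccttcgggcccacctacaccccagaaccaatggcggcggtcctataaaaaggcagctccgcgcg
Bnip3 (chr7:138909457-138909756, minus strand): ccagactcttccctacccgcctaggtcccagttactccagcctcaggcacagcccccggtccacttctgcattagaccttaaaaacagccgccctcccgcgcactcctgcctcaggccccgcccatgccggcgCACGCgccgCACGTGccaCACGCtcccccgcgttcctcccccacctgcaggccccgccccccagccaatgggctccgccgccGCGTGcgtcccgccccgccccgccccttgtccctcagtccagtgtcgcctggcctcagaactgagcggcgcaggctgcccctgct
Pgk1 (chrX:106186850-106187149, plus strand): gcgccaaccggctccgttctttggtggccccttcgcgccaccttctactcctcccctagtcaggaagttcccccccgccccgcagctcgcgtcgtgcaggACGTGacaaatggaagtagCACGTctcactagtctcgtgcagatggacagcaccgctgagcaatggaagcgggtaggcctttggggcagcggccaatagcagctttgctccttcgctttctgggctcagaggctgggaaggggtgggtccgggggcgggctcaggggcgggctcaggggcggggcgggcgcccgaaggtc

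The same lists also differed between libraries of 1 label at other times. The median level of the hypoxia-responsive genes was 4.60 to 4.69 in T12SA and 5.33 to 5.55 in T12 (log2(CPM + 1), lowest and highest library), with 4.65 to 4.81 at 0 h. At 24 h, under Epo alone, it spread from 4.75 to 6.12 over the 3 libraries, a gap larger than that between T12SA and T12, and at 36 h from 4.52 to 5.52. Glycolysis genes behaved alike, with 7.19 to 7.26 in T12SA, 7.70 to 7.72 in T12 and 6.47 to 7.43 at 24 h. The unblocked fit shares 1 spread over all groups, these included. What differed between those 24 h libraries is not in the labels, and its part in the difference between T12SA and T12 was not tested.

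**Figure D4:**
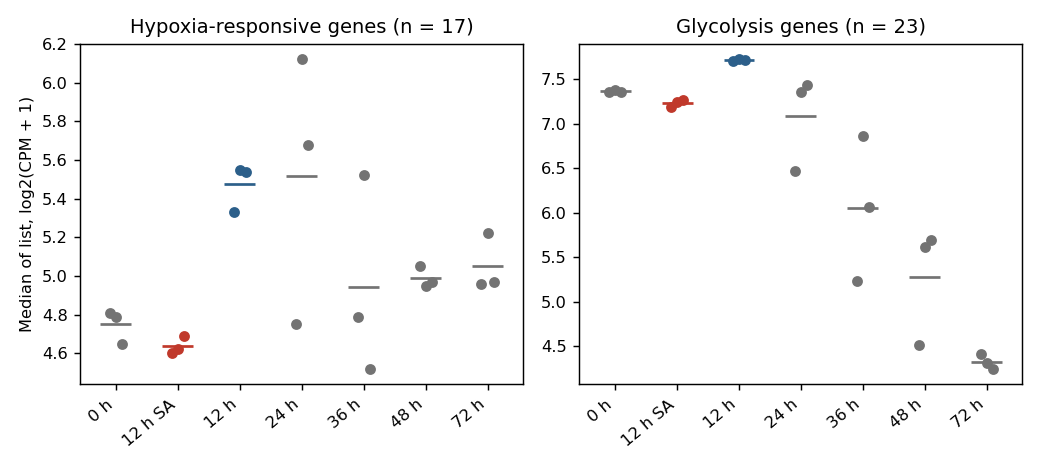
Median over each list of log2(CPM + 1) in every library of the series, by group; horizontal bars are group means (n = 3), and T12SA (red) stands left of T12 (blue). For the hypoxia-responsive genes the T12SA libraries lie at 4.60 to 4.69, below the T12 libraries at 5.33 to 5.55, and the 24 h libraries range from 4.75 to 6.12.

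Genes of the HRI and Atf4 response were lower, not higher, where they passed. Trib3 (chr2:152337422-152344032, minus strand), a pseudokinase induced by Atf4, had 3.24, 3.36 and 2.96 CPM in T12SA, against 10.5, 15.7 and 17.1 CPM in T12. It fell 4.49-fold (log2 change -2.17 ± 0.39, adjusted p = 0.0111) but stayed above the 1.14 ± 0.417 CPM at 0 h. Mthfd2, a mitochondrial enzyme of the folate cycle, had 59.0, 63.8 and 61.4 CPM in T12SA, against 87.7, 101 and 97.7 CPM in T12 (log2 change -0.64 ± 0.11, adjusted p = 0.0111). Neither passed without any 1 library but T12 replicate 1 (adjusted p of up to 0.101 for Trib3 and 0.0840 for Mthfd2), and Mthfd2 passed in none of the 3 limma fits on TPM (adjusted p = 0.256 to 1.00). Of the 36 genes tested these were the 2 lower ones in the unblocked fit. In the blocked fit 20 were lower and none higher, beside 8.88% and 5.14% of all genes. Without the libraries numbered 2, 9 were lower. The median log2 change was -0.16. In the blocked fit Chac1, a glutathione-degrading enzyme, fell by 1.26, Sesn2 by 0.54, Pck2 by 0.58 and Ddit3 (CHOP) by 0.35 on the log2 scale.

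Transcripts of the kinase and of the factor did not pass. Eif2ak1 had 166, 164 and 163 CPM in T12SA and 167, 168 and 168 CPM in T12, and Atf4 had 118, 111 and 110.3 CPM in T12SA and 112, 111 and 114 CPM in T12. The asparagine synthetase Asns, a much used Atf4 target, had 285, 289 and 287 CPM in T12SA and 293, 302 and 296 CPM in T12, and did not pass (blocked -0.07 ± 0.03, adjusted p = 0.179). The composite site of Atf4 and C/EBP, searched as TGATGNAAN, stood in 10 of 32 promoters of the list (31.2%), against 4.5% of all genes. Of the 16 members with a window that were lower in the blocked fit, 4 held it, so the site was not particular to the lower members. Other elements were searched in the same way in other lists. The Bach1 and Nrf2 element stood in 5 of 20 promoters of its list as TGANTCAGC (1.4% of all genes) and in 14 of 20 as the shorter TGANNNNGC (45%). The sterol element TCACNCCAC stood in 1 of 18 sterol synthesis promoters (1.4%). Of 21 membrane and skeleton promoters, none held the Klf1 element CCACACCC (4.1%) and 7 held the GATA element AGATAA (12.7%). The window of Trib3, shown as the largest fall of the Atf4 list, holds 1 site of Atf4 and C/EBP on the opposite strand (capitals).
Trib3 (chr2:152344011-152344310, minus strand): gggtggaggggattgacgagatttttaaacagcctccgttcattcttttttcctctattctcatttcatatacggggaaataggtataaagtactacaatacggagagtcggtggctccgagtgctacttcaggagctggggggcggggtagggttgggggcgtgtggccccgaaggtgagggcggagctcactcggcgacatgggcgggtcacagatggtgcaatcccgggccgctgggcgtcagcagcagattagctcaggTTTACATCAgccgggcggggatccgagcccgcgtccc

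Globin transcripts took a smaller share of the libraries with SA. Their share was 1.05, 0.899 and 0.870% of counts in T12SA, against 1.40, 1.23 and 1.20% in T12, without overlap (exact permutation p = 0.10, 2-sided, the smallest that 3 against 3 allows). None of 10 globin genes passed in the unblocked fit, although all 10 log2 changes were below 0 (median -0.55). In the blocked fit 5 of 7 fell, against 8.88% of all genes. The adult beta chain Hbb-bs had 1136, 898 and 857 CPM in T12SA and 1616, 1463 and 1351 CPM in T12 (log2 change -0.62, adjusted p = 0.740; blocked -0.64 ± 0.04, adjusted p = 4.95e-07). The alpha chain Hba-a1 had 2723, 2513 and 2231 CPM in T12SA and 3744, 3071 and 3065 CPM in T12 (blocked -0.42 ± 0.04). The embryonic chain Hbb-bh1 had 5.74, 5.77 and 6.57 CPM in T12SA and 12.1, 13.8 and 13.7 CPM in T12 (blocked -1.15 ± 0.07). Hba-a1 and Hba-a2, like Hbb-bs and Hbb-bt, are near-identical, so their split is uncertain. Against 0 h, Hbb-bs was 3.36 higher on the log2 scale in T12SA and 3.97 higher in T12.

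Of 28 red cell membrane and skeleton genes, Slc2a1 alone passed in the unblocked fit (0.364% of all genes were lower there). With the block 10 fell, against 8.88% of all genes, and 1 rose, with 5 falls and no rise without the libraries numbered 2. The anion exchanger Slc4a1 (band 3) had 1557, 1950 and 1652 CPM in T12SA and 1900, 2377 and 2243 CPM in T12, which overlap between unlike numbers but not within any pair (blocked -0.36 ± 0.04, adjusted p = 4.35e-05). Add2, an adducin of the membrane skeleton, fell in the blocked fit (-0.44 ± 0.04).

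The master regulators of erythropoiesis did not pass in either fit. Gata1 had 289.6, 281 and 261 CPM in T12SA and 299, 281 and 268 CPM in T12. Klf1 had 238, 227 and 213 CPM in T12SA and 238, 207 and 223 CPM in T12, and Tal1 had 731, 694 and 687 CPM in T12SA and 733, 682 and 696 CPM in T12. Of 27 transcription regulators, none passed unblocked (0.364% of all genes were lower there). In the blocked fit 5 fell and 1, Mafk, rose, beside 8.88% and 5.14% of all genes. Foxo3, which drives antioxidant and late maturation genes, had 160.1, 160.2 and 154 CPM in T12SA and 222, 243 and 231 CPM in T12, just outside the threshold unblocked (log2 change -0.55 ± 0.12, adjusted p = 0.0558; blocked -0.57 ± 0.04, adjusted p = 5.01e-07). Lyl1 fell by 0.51 in the blocked fit.

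For the 22 Epo and STAT5 targets tested, the median log2 change over 0 h was 0.49 in T12SA and 0.80 in T12. These 2 comparisons share the 0 h libraries, and the median over all genes was -0.01 in each. Epo was added as SCF and dexamethasone were withdrawn, so a change over 0 h cannot be assigned to Epo alone. Between T12SA and T12, Tfrc was lower unblocked. In the blocked fit 10 were lower and 2 higher (6 lower and none higher without the libraries numbered 2), beside 8.88% and 5.14% of all genes. Cish, a STAT5 feedback gene, was 7.64 above 0 h on the log2 scale in T12SA and 7.77 in T12, and Pim1 5.93 in T12SA and 6.13 in T12. Erfe, the hormone erythroferrone that frees iron for red cell formation, had 47.2, 58.9 and 49.7 CPM in T12SA and 70.8, 79.0 and 70.2 CPM in T12 (blocked -0.52 ± 0.04, adjusted p = 1.73e-06). Kit, the SCF receptor lost on differentiation, had 98.5, 72.9 and 85.2 CPM in T12SA and 104, 87.0 and 91.5 CPM in T12, beside 986 ± 34.8 CPM at 0 h. The terminal maturation list had 9 of 23 lower in the blocked fit (5 without the libraries numbered 2) and none unblocked, with Fam46c at -0.59 ± 0.05 and the mitochondrial clearance receptor Bnip3l at -0.33 ± 0.04.

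Ribosome biogenesis held the largest share of higher genes among the lists in the blocked fit, and the changes were small. None of its 31 genes passed unblocked, where the median log2 change was 0.18. In the blocked fit 20 rose (5.14% of all genes did), none fell and 11 did not pass. The median level of the list overlapped between the groups, at 5.94 to 6.05 in T12SA and 5.79 to 6.01 in T12 (log2(CPM + 1)). Only 4 passed without the libraries numbered 2 and 7 without those numbered 3. The processome subunit Utp4 had 63.4, 61.9 and 59.5 CPM in T12SA and 54.4, 51.4 and 48.7 CPM in T12 (blocked 0.24 ± 0.04). Polr1a, the large subunit of RNA polymerase I, had 109, 116 and 112 CPM in T12SA and 99.6, 94.1 and 94.4 CPM in T12 (blocked 0.20 ± 0.04). The list was 0.96 below 0 h in T12SA and 1.09 below it in T12 (median log2). The 45 ribosomal protein genes had no call in either fit (median log2 change -0.03).

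Of 21 heat shock chaperones tested in the blocked fit, 7 were higher, such as the cytosolic Hsph1 (0.34 ± 0.03) and Hspa8 (0.17 ± 0.03), and 2 were lower, Hspa5 (BiP, -0.41 ± 0.04) and Hsp90b1 (-0.30 ± 0.04), both of the endoplasmic reticulum. The other 12 did not pass. Over all genes, 5.14% were higher and 8.88% lower in the blocked fit. Leaving out the libraries numbered 2 left 3 higher, and leaving out those numbered 1 gave 5 lower. None of the 24 tested passed unblocked. Sterol synthesis had 20 of 26 genes lower and none higher in the blocked fit (8 without the libraries numbered 2) and none unblocked, with a median log2 change of -0.19, as for mevalonate kinase, Mvk (-0.52 ± 0.09), and Idi1 (-0.35 ± 0.05). Of the fatty acid genes 7 of 18 were lower (3 without the libraries numbered 2), led by the desaturase Scd2, with 580.1, 771 and 685 CPM in T12SA and 935, 1286 and 1139 CPM in T12 (blocked -0.74 ± 0.03).

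Lists for the nuclear respiratory chain (32 genes), transcripts of the mitochondrial genome (13) and G2 and mitosis (28) had no call in either fit, with median log2 changes of 0.02, 0.01 and 0.00. DNA replication had 4 of 32 higher and 1 lower in the blocked fit, Kit, ERK and progenitor genes 2 of 14 higher and 1 lower, and of 18 interferon-stimulated genes 1, Isg20, was lower. Of 20 CDK inhibitors and p53 targets, 3 were higher and 5 lower in the blocked fit (5.14% and 8.88% of all genes), down to none and 2 without the libraries of 1 number, and none passed unblocked. The CDK inhibitor Cdkn1b, which holds cells in G1, had 27.1, 27.9 and 27.1 CPM in T12SA and 36.4, 38.6 and 38.9 CPM in T12 (log2 change -0.47 ± 0.12, adjusted p = 0.142; blocked -0.49 ± 0.04, adjusted p = 7.24e-06).

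**Figure D5:**
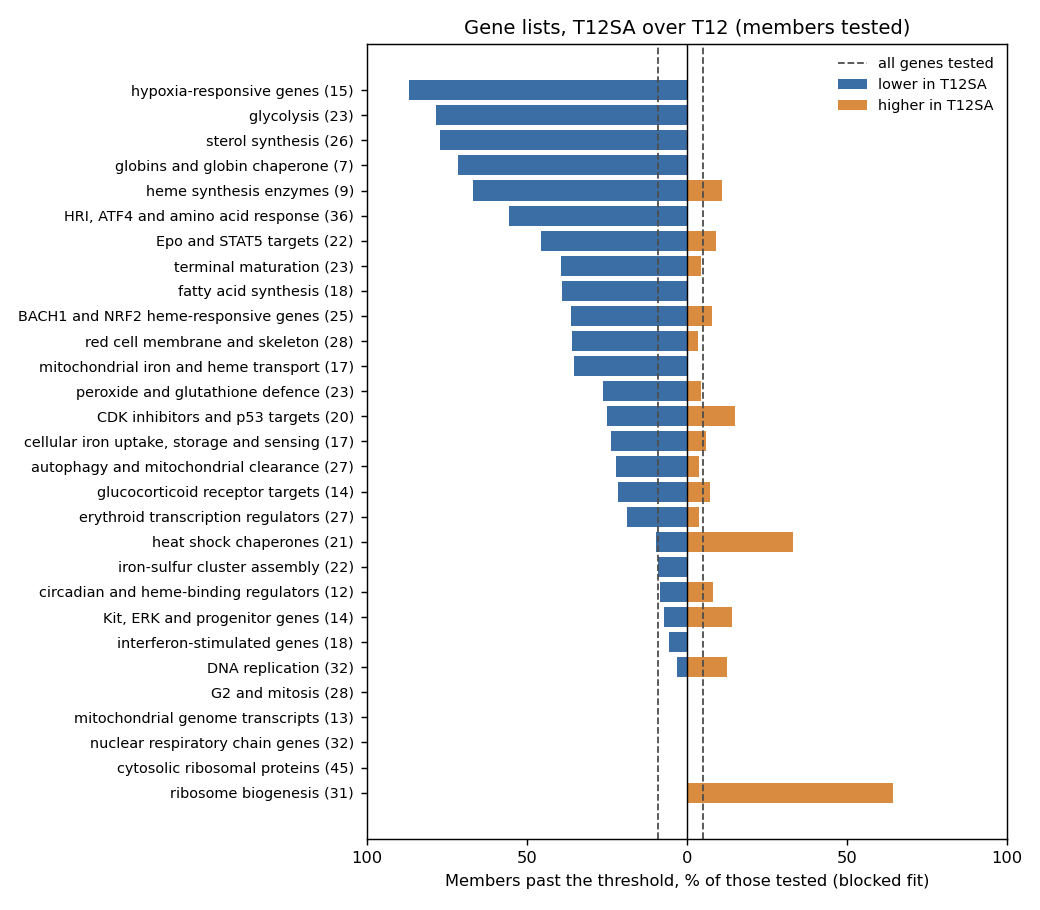
Share of each list's tested members (number in brackets) that were lower (left) or higher (right) in T12SA than in T12 in the blocked fit, in percent; dashed lines give the shares over all 11115 genes, 8.88% lower and 5.14% higher. The longest bars to the left are hypoxia-responsive genes and glycolysis, with 13 of 15 and 18 of 23 members, and the longest to the right is ribosome biogenesis, with 20 of 31.

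Genes outside the lists completed the largest changes. Sh2d4b, an adaptor with an SH2 domain, had 2.80, 2.88 and 3.41 CPM in T12SA, against 1.11, 1.01 and 1.16 CPM in T12 (log2 change 1.46 ± 0.29, adjusted p = 0.0220; up to 0.160, and never below 0.05, without any 1 library). Dcbld2, a membrane receptor, had 29.8, 30.9 and 28.5 CPM in T12SA, against 71.3, 95.7 and 96.7 CPM in T12 (-1.56 ± 0.14, adjusted p = 2.82e-06). Adgrd1, an adhesion receptor coupled to G proteins, had 5.51, 3.93 and 4.30 CPM in T12SA, against 11.1, 10.6 and 12.7 CPM in T12 (-1.32 ± 0.17, adjusted p = 0.000404). Mgarp, a mitochondrial protein, had 1.75, 2.09 and 2.20 CPM in T12SA, against 5.45, 7.59 and 7.01 CPM in T12 (-1.73 ± 0.28, adjusted p = 0.00607; up to 0.0612 without T12SA replicate 1 or 2 or T12 replicate 2). Pgm2, a sugar phosphate mutase, and Gys1, a glycogen synthase, also fell (-1.50 ± 0.25 and -1.11 ± 0.20, adjusted p = 0.00607 and 0.0111; up to 0.0605 for Pgm2 without T12SA replicate 1 or 3, and up to 0.103 for Gys1 without any 1 library but T12 replicate 1). Col4a3, a collagen of basement membranes, had 2.10, 0.723 and 0.804 CPM in T12SA, against 5.88, 3.15 and 3.07 CPM in T12 (-1.75 ± 0.35, adjusted p = 0.0220), with an adjusted p of up to 0.221 without T12SA replicate 2 or 3 or T12 replicate 1 or 2.

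Of the 47 called genes, 8 had a mean count under 100. Among these, the ion channel Trpv1 had no count in T12SA and 75 counts in T12, at least 28.9-fold lower taking 3 counts summed over the group as the floor, and Cyp2s1, a cytochrome P450, had 0.0572, 0.110 and 0.0785 CPM in T12SA, against 1.21, 1.17 and 1.58 CPM in T12. The largest rises that only the blocked fit called, named after their values were seen, included the linker histone H1f0 (115, 116 and 117 CPM in T12SA against 81.1, 85.8 and 84.0 CPM in T12, blocked 0.45 ± 0.03) and Dnajc12 (blocked 0.54 ± 0.14).

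The lower genes were set beside 24 h against 0 h, a comparison that shares no library with this one and in which 32.1% of genes were higher and 33.9% lower. Of the 45 lower genes 32 (71.1%) were higher at 24 h, among them Tfrc, Slc16a3 and Gclm, and 8 (17.8%) were lower. Of the 987 lower genes of the blocked fit 592 were higher at 24 h (60.0% of them, 14.9% of all genes higher at 24 h) and 205 were lower (20.8%, and 4.90% of those lower at 24 h). Of its 571 higher genes 416 were lower at 24 h (72.9%, and 9.94% of those lower at 24 h) and 65 higher (11.4%, and 1.64% of those higher at 24 h).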

How the data were processed

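Polyadenylated RNA of 21 MEDEP libraries in 7 groups of 3 was sequenced, and the 6 libraries of T12SA and T12 were compared. The authors deposited estimated counts per gene, unscaled for depth (22483 genes; 78.5% of values whole within 1e-06), together with TPM values, which the authors scaled for transcript length and depth. The tools kallisto, STAR 2.5.3a and DESeq2, and the builds mm10 and GRCm38.p5, are named per the submitters' processing notes; which tool made which table is not given in the sources used here. Estimated counts were rounded. Genes passing filterByExpr (minimum count 10; 12360 genes) were fitted over all 21 libraries with TMM scaling in edgeR 4.0.16 (glmQLFit, glmQLFTest, R 4.3.3), and T12SA was contrasted with T12, 2-sided, with Benjamini-Hochberg adjustment over all tested genes at 0.05. Standard errors, which are approximate, equal the size of the log2 change over the root of F. The biological coefficient of variation was 11.6%. On simulated data with these depths, planted changes of 1.5-, 2- and 4-fold were recovered in 80, 94 and 100% of genes, with 5 false calls among 12360. Changes were planted only in better counted genes. Counts were drawn independently for each gene and library, so differences between libraries shared by many genes were absent. These shares therefore do not give the recovery in the real data, where a larger fall, that of Bnip3, did not pass unblocked.

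Total counts were 31015256 to 39316031 in T12SA and 24960611 to 37135174 in T12. Libraries of 1 group differed by more than sampling noise (chi-square per gene 7 to 14.6, Spearman 0.9959 to 0.9974). Deviations from group means correlated at 0.505, 0.407 and 0.519 between libraries of the same number over 7178 genes (at least 10 CPM). Each pair was above 0.1, so the numbers were taken as pairs. Between unlike numbers the correlations were -0.527 to 0.0248. Deviations cancel within a group, so positive values at the same number push those at unlike numbers down. The low values at unlike numbers are therefore not separate evidence of pairing. The labels give each sample a replicate number and do not say what it marks. The blocked fit used the 6 libraries with the number as a block and tested the 11115 genes that passed the filter in them. Other alternatives were the size factors of DESeq2, no filter, library sizes without globin genes, the 6 libraries without a block, DESeq2 1.42.0, limma 3.58.1 (limma-trend) on log2(TPM + 1) or log2(TPM + 0.1), and each library left out. Floors cover counting error only.

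The 29 pathway and 8 marker lists, and the rule for named genes, were chosen with earlier results of these data known. The rule names the up to 12 largest rises and falls whose mean count reached 100 and whose groups did not overlap, members of the heme, globin and Bach1 lists, up to 4 called members per direction of each other list, and a panel of 14 genes; part of them is given, and other list members in the text were chosen after their values were seen. Ahsp was not analysed here, and some genes counted in the lists are not reported here by name. Positions are from GENCODE M21 (GRCm38) and promoters from RefSeq.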

Additional observations from a re-analysis of the deposited data

How the results depend on the processing

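Against 2 higher and 45 lower genes, the size factors of DESeq2 gave 2 and 53, library sizes without globin genes 2 and 45, no filter 2 and 72, the replicate block 571 and 987, the 6 libraries without a block 89 and 376, and DESeq2 25 and 126. On TPM, limma gave 3 and 33 with a pseudocount of 1, 2 and 14 with 0.1, and 37 and 77 with all genes above 0 in 3 libraries. Of the genes named, Tfrc, Gclm and Mthfd2 passed in none of the limma fits, Ero1l and St5 only with a pseudocount of 1 and the filter, Gys1 not with 0.1, and Col4a3 and Cntn6 not with all genes, the limma fit that tested them. Leaving out 1 library gave 1 higher and 10 to 30 lower genes. The replicate block without 1 number, added after seeing the data, gave 75 to 467 higher genes (467, 75 and 268 without number 1, 2 and 3) and 391 to 886 lower ones (886, 391 and 715). Leaving out 1 library leaves its group with 2.

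Among the genes named, signs turned only for those with changes near 0 that passed in no fit. Atf4 (0.01) was -0.00 with the size factors of DESeq2 and in DESeq2, -0.01 in the block and in the 6 libraries alone, -0.02 to 0.03 without 1 library and -0.04 in the block without number 1. Tal1 (0.00) was -0.01 with the size factors of DESeq2 and in DESeq2, -0.00 without the filter and without globins, -0.02 in the block and in the 6 libraries alone, -0.03 to 0.03 without 1 library and -0.02 to -0.01 in the block without 1 number. Slc2a3 (0.00) was -0.01 with the size factors of DESeq2 and in DESeq2, -0.00 without the filter, -0.02 in the block and in the 6 libraries alone, -0.02 to 0.03 without 1 library and -0.03 to 0.00 in the block without 1 number. On TPM, where the median of all genes was 0.048, Eif2ak1 (-0.03) was 0.00 in all 3 limma fits. Without 1 library Gata1 (-0.03) was -0.07 to 0.01 and Klf1 (0.02) -0.03 to 0.07. In the block without 1 number Klf1 was -0.04 to 0.04, Pfkm (0.02) -0.01 to 0.01 and Uros (0.03) -0.00 to 0.03. The cause was not tested.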

Other observations

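Over all genes, 8.88% were lower and 5.14% higher in T12SA than in T12 in the blocked fit. Of 27 genes of autophagy and mitochondrial clearance none passed unblocked, and in the blocked fit 6 were lower (down to 2 without the libraries of 1 number) and 1, Atg5, was higher. The lower ones were Bnip3 and Bnip3l, receptors that mark mitochondria for removal, Pink1 (-0.18 ± 0.05), Atg9a (-0.18 ± 0.04), Map1lc3a (-0.21 ± 0.06) and Wipi1 (-0.14 ± 0.04). Of 12 circadian and heme-binding regulators none passed unblocked. With the block the clock repressor Ciart was lower (0.553, 0.660 and 0.471 CPM in T12SA and 1.68, 2.02 and 2.48 CPM in T12, -1.87 ± 0.22, adjusted p = 0.000136) and Per2 higher (6.71, 7.34 and 6.57 CPM in T12SA and 5.15, 5.54 and 5.62 CPM in T12, 0.32 ± 0.08, adjusted p = 0.0196). Ciart also fell without the libraries of any 1 number, whereas Per2 no longer passed without those numbered 1 or 2. Of 22 genes for assembly of iron-sulfur clusters, the other large user of mitochondrial iron, none passed unblocked and 2 were lower in the blocked fit, with a median log2 change of -0.01. Of 23 genes of peroxide and glutathione defence, Gclm alone was lower unblocked, and 6 were lower and 1 higher in the blocked fit. Targets of the glucocorticoid receptor, whose ligand dexamethasone is removed at induction per the labels, had none of 15 called unblocked and, in the blocked fit, 3 of 14 lower and 1 higher, with Dusp1, a phosphatase acting on MAP kinases, at 60.5, 73.5 and 51.7 CPM in T12SA and 83.2, 103 and 75.4 CPM in T12 (blocked -0.51 ± 0.04, adjusted p = 9.61e-07).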
